A study of Mus musculus with 2 samples.

Results

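Genes for voltage-gated and other potassium channels, voltage-gated sodium channels and voltage-gated calcium channels were compared between 2 RNA-seq libraries of mouse muscle satellite cells. Members were the rows of the deposited count table whose gene symbol starts with Kcn and a letter, Scn and a digit, or Cacna, Cacnb or Cacng. Cacna1s, Cacnb1 and Cacng1, subunits of the calcium channel of the muscle triad, were left out by the rule. This gave 68 genes of 16190 in the table. Satellite cells are the stem cells of skeletal muscle, and the cells came from the tibialis anterior, a muscle of the lower leg, of C57BL/6 mice. Total RNA of 1 library was labelled Cipc-flox/flox, the floxed control, which its sample title calls Cipc+/+. The other library was labelled Cipc-scko, titled Cipc-/-, where Cipc is deleted in satellite cells. They are called the control and the knockout from here on. Cipc encodes a repressor of CLOCK and BMAL1, the transcription factor pair that drives circadian rhythms. The Cre line, the age and number of animals behind each library, the time of collection and the days in culture, if any, were not given in the sources. The title of the series names mdx mice, but the labels give neither library an mdx allele.

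Potassium channels hold the membrane at rest and end action potentials, sodium channels start them, and calcium channels pass the signal on to contraction, secretion and transcription. Each voltage-gated channel has a pore-forming alpha subunit and may carry accessory subunits that set its surface level and gating. In muscle precursors, potassium currents make the membrane potential more negative before myoblasts fuse, and mature fibres add the sodium and calcium channels needed for excitation.

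The libraries held 16830168 counts (knockout) and 16145870 counts (control), and levels are given as CPM, counts scaled to library size with TMM factors. Cipc itself had 37.0 CPM in the knockout and 113 CPM in the control, a 3.05-fold lower level in the knockout (log2 ratio -1.61, 95% counting interval -1.74 to -1.47), counted over all exons of the gene and not by exon. Sex-linked RNA ran with genotype: Xist had 4 counts in the knockout and 3898 in the control, while the Y-linked Ddx3y had 511 and 0, so sex and genotype cannot be told apart. Of 12 satellite cell markers, 10 were in the table and all 10 passed the filter on low values given in the next paragraph. Of these 10 markers, 3 were called higher in the knockout, 2 lower and 5 neither. The summed level of the 10 was 3844 CPM in the knockout and 2145 CPM in the control, of which Myod1 gave 1192 and 113 CPM. Pax7 stood at 62.2 and 2.54 CPM and Cd34 at 0.187 and 25.2 CPM. All 12 markers of differentiating muscle were higher in the knockout, with summed levels of 20036 and 171 CPM, and Myog stood at 2758 and 3.13 CPM. Smooth muscle and pericyte markers (7 of 8 higher, 1 lower) summed to 14500 and 736 CPM, with Acta2 at 12432 and 513 CPM. Neuron markers (1 of 7 past the filter higher, 5 lower) summed to 255 and 496 CPM. Tubb3, called neither, gave 246 and 129.5 CPM of these sums. Nefl, Nefm, Map2 and Syt1 were at 0 in the knockout and Dcx at 0 in the control. Summed levels in the knockout and the control were 171 and 68.1 CPM for Schwann cell markers (2 of 4 past the filter higher, 2 lower). Fibro-adipogenic markers (1 of 5 higher, 3 lower) summed to 2944 and 2112 CPM, endothelial markers (2 of 2 higher) to 12.2 and 1.65 CPM, and macrophage and leukocyte markers (1 of 3 higher, 2 lower) to 6.17 and 47.3 CPM. Col3a1, the fibro-adipogenic marker called higher, gave 2177 and 850 CPM of the sums of its group. These marker groups move with the same 2 libraries as the channel genes, and their part in the channel results was not tested.

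Of the 68 channel genes, 37 passed a filter that asked for 1 CPM or more in either library and for 20 counts or more in total. Among these 37, 21 were at least 2-fold higher in the knockout, 5 were at least 2-fold lower and 11 were neither, where a call also required that the 95% counting interval of the ratio excluded equality. Over all 12874 genes past the filter, 21.2% were called higher and 15.9% lower. The channel genes had a median log2 ratio of knockout over control of 1.60 and ranged from -6.01 to 8.36 (fitted with a prior count of 0.5), against a median of 0.01 over all genes past the filter. That median rests on few genes: it was 2.81 without the X-linked Kcnd1 and 2.81 with a minimum of 5 CPM. The filter shaped these counts. It was met only through the knockout library by 18 of the 37 and only through the control by 2. A gene that enters through 1 library alone had to differ in level, though not always by enough for a call. Kcnj15, with 1.49 CPM in the knockout and 0.827 CPM in the control, was called neither. The other 17 reached 1 CPM in both libraries, a condition that leaves out genes near 0 in either. They held 4 higher and 3 lower calls and 10 of neither kind, and the 11043 genes of the whole table that met it held 1576, 1499 and 7968. The counts of 21 and 5 are therefore a description of these genes and support no direction for the group. Channel genes were also less abundant, with a median of 5.98 CPM in the library where each was higher, against 37.3 CPM over all genes past the filter. There is 1 library per group, so no difference has a replicate check, no p-value is given, and the intervals cover counting error only. In bulk RNA, a lower share of cells that carry a transcript and less of it per cell cannot be told apart.

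**Figure D1:**
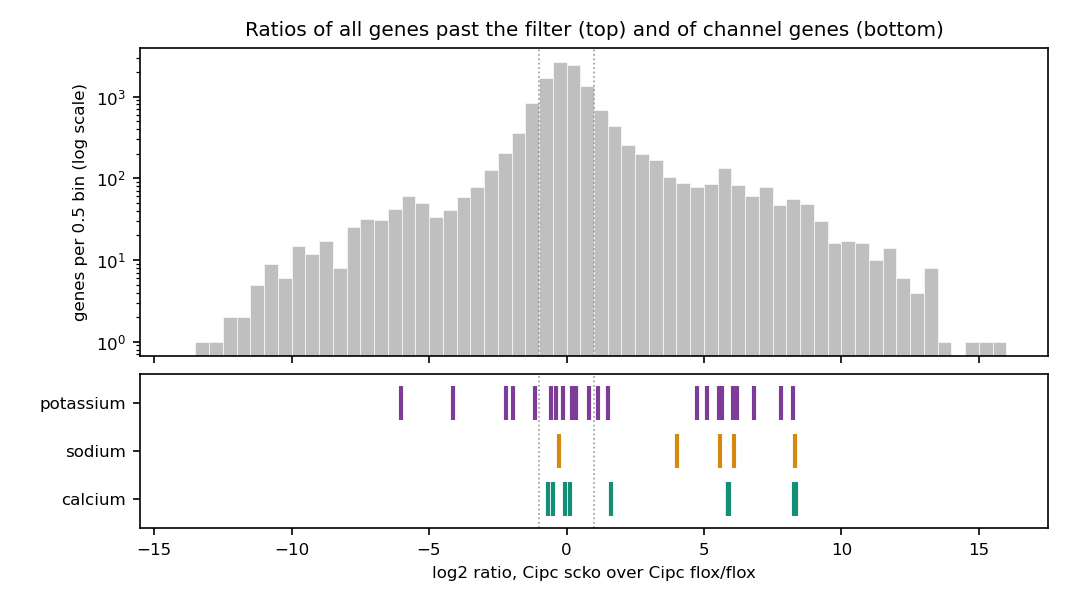
The upper panel is a histogram of the log2 ratio of knockout over control for all 12874 genes past the filter (bins of 0.5, gene number on a log axis), and the lower panel marks each of the 37 channel genes past the filter by ion. Dotted lines stand at 2-fold. Sodium and calcium channel genes lie near 0 or to the right, and 5 potassium channel genes lie to the left of the lower dotted line.

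By ion, the 22 potassium channel genes past the filter held 11 higher and all 5 lower calls, with a median log2 ratio of 0.98. The 5 sodium channel genes held 4 higher calls and none lower (median 5.60, or 4.01 with genes at 0 counts set to a floor of 3 counts in that library). The 10 calcium channel genes held 6 higher calls and none lower (median 3.74, or 2.45 at that floor). Over all genes past the filter, 21.2% were called higher and 15.9% lower. Scn3a, Scn4a, Scn3b, Cacna1h, Cacna1c, Cacna2d3, Cacng6 and Cacng7 lay under 1 CPM in the control and passed only through the knockout. The filter therefore shaped these calls and medians, which support no direction for an ion. The level plot shows each gene in both libraries.

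**Figure D2:**
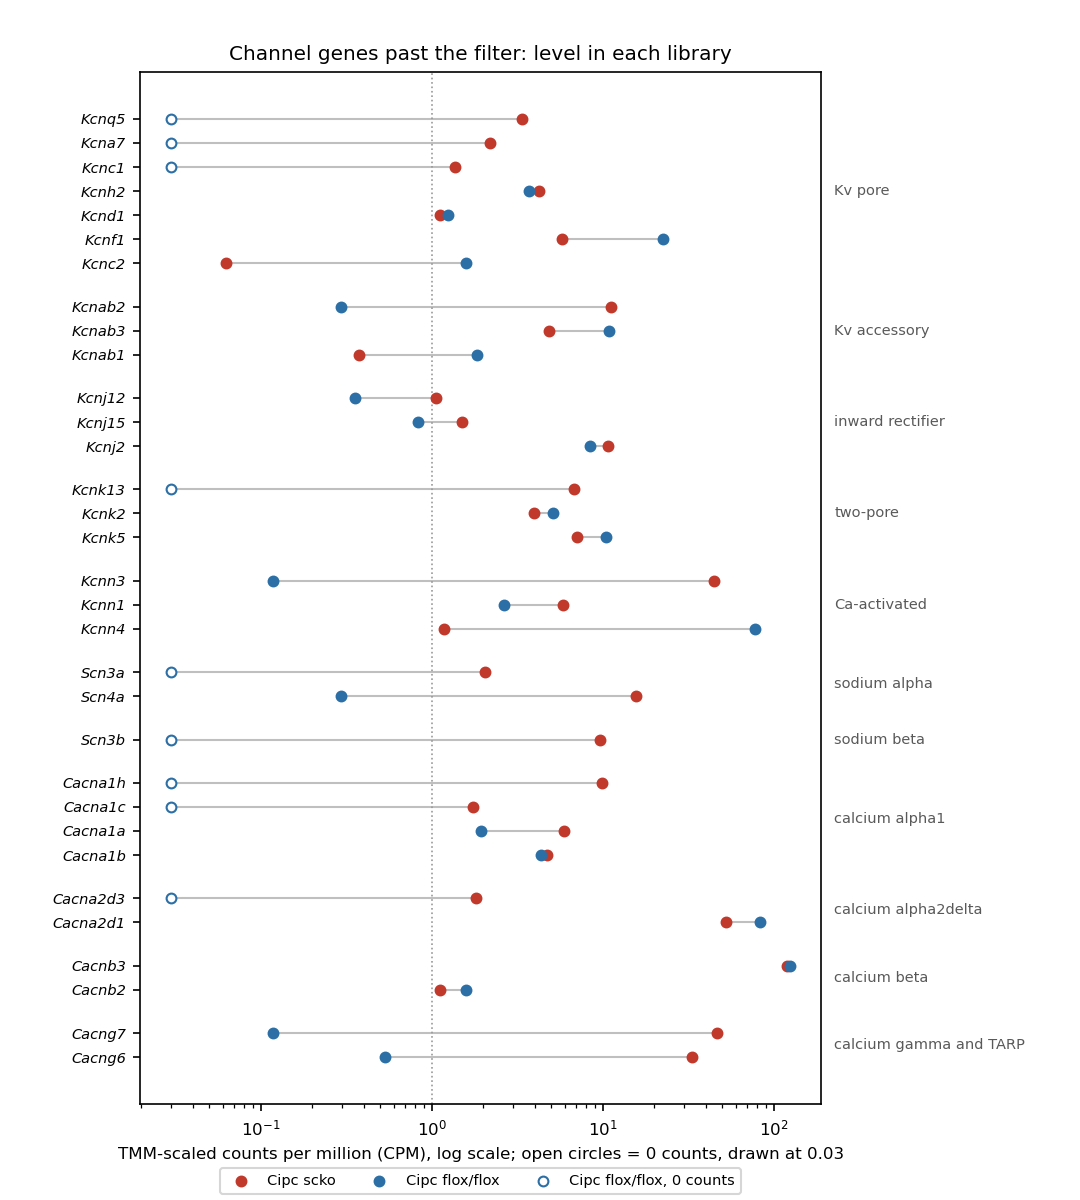
Each row is 1 of the channel genes past the filter that are described here, grouped by subunit class, with its level in the knockout (red) and the control (blue) in TMM-scaled CPM on a log axis. Open circles are 0 counts, drawn at 0.03, and the dotted line is 1 CPM. The widest gaps among the genes shown that were counted in both libraries are those of Cacng7, Kcnn3 and Cacng6, high in the knockout, and Kcnn4, high in the control.

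Pore-forming subunits of voltage-gated potassium (Kv) channels were the largest class, with 15 of 41 annotated genes in the table and 10 past the filter, of which 6 were called higher in the knockout, 2 lower and 2 neither. Kcnq5, a Kv7 channel, had 54 counts in the knockout and 0 in the control, at least 19.0-fold higher. A single Kv1 gene passed the filter, Kcna7, which is known from heart and skeletal muscle, with 35 counts and 0 (at least 12.3-fold). The Kv3 genes, which encode fast channels of neurons that fire at high rates, did not share a direction. Kcnc1 had 22 counts and 0 (at least 7.73-fold higher). Kcnc2 had 1 count in the knockout and 27 in the control (log2 ratio -4.13, -10.03 to -2.08).

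Kcnf1 was the abundant Kv gene of the control. It encodes a silent subunit that forms no channel alone and modifies Kv2 channels when it joins them. Its counts were 93 in the knockout and 383 in the control (5.79 and 22.6 CPM), a 3.91-fold lower level in the knockout (log2 ratio -1.96, -2.31 to -1.64; chr12:17172100-17176888, GRCm38). Kcnh2, the hERG channel of cardiac repolarisation, had 68 and 63 counts (log2 ratio 0.19, -0.33 to 0.70), and the Kv4 gene Kcnd1 had 18 and 21 (-0.14, -1.14 to 0.83). Neither interval excluded equality, and both exclude a difference of 4-fold. Of the authors' FPKM values, which are scaled by transcript length, Kcnf1 made up 3.83% of the Kv pore sum in the knockout and 73.5% in the control.

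Accessory Kv subunits were split as well. The Kv beta subunits are cytoplasmic proteins of the aldo-keto reductase fold that bind Kv1 channels. Kcnab2 had 179 counts in the knockout and 5 in the control (11.2 and 0.295 CPM), 37.7-fold higher (log2 ratio 5.10, 3.99 to 6.88). Kcnab1 had 6 and 31 counts, 4.90-fold lower (log2 ratio -2.20, -3.84 to -1.01), and Kcnab3 had 78 and 184, 2.24-fold lower (log2 ratio -1.16, -1.56 to -0.77). Kcnab3 shares exon sequence with its antisense gene Kcnab3os (3 counts and 0), and the sources do not say whether counting used strand. Per length, Kcnab2 was 36.8% of the Kv beta sum in the knockout and 0.669% in the control, and Kcnab3 was the largest share in both. The other accessory genes in the table, of the Kcne and Kcnip families, all lay under the filter.

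The small- and intermediate-conductance potassium channels (Kcnn), which open when calcium inside the cell rises, held calls in both directions within 1 family. Kcnn3 passed the filter only through the knockout, and whether Kcnn3 and Kcnn4 RNA came from the same cells was not tested. SK3, encoded by Kcnn3, is known from immature and denervated muscle. It had 719 counts in the knockout and 2 in the control (44.8 and 0.118 CPM; log2 ratio 8.24, 6.71 to 11.61). KCNN4 is the intermediate-conductance channel of blood cells, fibroblasts and other cells that do not fire action potentials. Kcnn4 had 19 counts in the knockout and 1323 in the control (1.18 and 78.2 CPM), a 66.0-fold lower level (log2 ratio -6.01, -6.78 to -5.40), the lowest ratio among the channel genes past the filter. Kcnn1 had 94 and 45 counts, 2.20-fold higher (log2 ratio 1.13, 0.61 to 1.69), but it shares a near-identical transcript with the predicted gene Gm11032, and its ratio fell just short of 2-fold when counts were scaled by library totals. Of the summed FPKM of the 3 genes (5.35 in the knockout and 12.0 in the control), Kcnn3 was 71.3% and 0.0922%, Kcnn4 was 2.91% and 94.2%, and Kcnn1 was 25.8% and 5.73%.

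The sequences upstream of these genes were searched for a pair of 6-base motifs: CACGTG, the E-box form that CLOCK and BMAL1 bind, and CAGCTG, the form favoured by myogenic factors such as MYOD1. Each reads the same on both strands, and matches cannot overlap each other. The windows were the 250 bases before each RefSeq transcript start on GRCm38.p6. The first 3 sequences show the Kcnn genes, whose ratios span both ends of the range within 1 family, and the other pair shows channel genes with CACGTG. All are 5′ to 3′ on the gene's strand, with motif matches in capitals.
Kcnn3 (chr3:89519914-89520163, plus strand): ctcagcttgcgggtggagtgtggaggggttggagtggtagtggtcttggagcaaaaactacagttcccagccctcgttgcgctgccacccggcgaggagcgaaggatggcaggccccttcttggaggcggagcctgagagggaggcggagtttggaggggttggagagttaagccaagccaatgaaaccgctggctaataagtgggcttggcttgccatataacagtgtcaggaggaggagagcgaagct
Kcnn4 (chr7:24370013-24370262, plus strand): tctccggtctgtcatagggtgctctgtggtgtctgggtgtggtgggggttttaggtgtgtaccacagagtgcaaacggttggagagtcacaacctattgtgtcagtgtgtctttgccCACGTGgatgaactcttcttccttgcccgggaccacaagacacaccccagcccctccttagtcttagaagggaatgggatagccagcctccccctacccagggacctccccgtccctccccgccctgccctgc
Kcnn1 (chr8:70863259-70863508, minus strand): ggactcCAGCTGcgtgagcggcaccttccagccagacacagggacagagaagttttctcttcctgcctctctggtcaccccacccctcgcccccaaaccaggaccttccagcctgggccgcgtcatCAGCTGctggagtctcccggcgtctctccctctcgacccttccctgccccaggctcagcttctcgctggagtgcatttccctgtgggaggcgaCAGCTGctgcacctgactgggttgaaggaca
Kcnab1 (chr3:65108764-65109013, plus strand): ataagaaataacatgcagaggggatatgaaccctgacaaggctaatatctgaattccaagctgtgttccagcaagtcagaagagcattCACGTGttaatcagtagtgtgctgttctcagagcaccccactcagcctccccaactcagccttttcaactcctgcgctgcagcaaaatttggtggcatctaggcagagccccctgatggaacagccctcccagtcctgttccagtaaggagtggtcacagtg
Kcnj2 (chr11:111065914-111066163, plus strand): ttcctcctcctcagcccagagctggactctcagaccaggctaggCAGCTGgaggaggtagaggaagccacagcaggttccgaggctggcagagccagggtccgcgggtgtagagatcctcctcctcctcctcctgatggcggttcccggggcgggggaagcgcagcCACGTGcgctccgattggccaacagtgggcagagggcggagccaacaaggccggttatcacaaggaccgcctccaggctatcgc

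CACGTG lies 133 bases before the start of Kcnn4, 162 before the start of Kcnab1 shown and 84 before that of Kcnj2. CAGCTG lies 206 bases before the start of Kcnj2 and at 3 places in the Kcnn1 window shown. The other Kcnn1 window holds 1 CAGCTG, 142 bases before its start. Another Kcnab1 window, not shown, holds CACGTG 45 bases before its start. The Kcnn3 window holds neither. Of the 37 channel genes past the filter, 26 had a window in the table. CACGTG was in 3 of these 26 (11.5%), against 10.1% of the 9867 genes past the filter with a window and 6.02% of all 32851 windows. It was in 2 of the 4 lower genes with a window (Kcnn4 and Kcnab1), in none of the 13 higher genes, and in 1 of the 9 others (Kcnj2). Over all genes past the filter with a window, it was in 12.2% of the lower and 8.5% of the higher genes. CAGCTG was in 7 of the 26 (26.9%), against 14.7% of genes past the filter and 13.0% of all windows. It was in 2 of 13 higher, 1 of 4 lower and 4 of 9 other genes, against 18.7% of all higher and 16.8% of all lower genes. A match is a run of letters and shows no binding, and genes with several starts, such as Kcnab1 with 3 windows, have more room to match.

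Inward rectifiers and two-pore channels, which carry the resting potassium current, held 2 calls among 6 genes past the filter, both higher. Kcnj2, the Kir2.1 channel that brings human myoblasts to a negative potential before fusion, had 173 counts in the knockout and 142 in the control (10.8 and 8.39 CPM; log2 ratio 0.36, 0.03 to 0.69). That interval excludes equality but lies within 2-fold. Kcnj15 had 24 and 14 counts (0.83, -0.16 to 1.92), called neither, and Kcnj12 had 17 and 6, 2.99-fold higher (log2 interval 0.17 to 3.21) at a level just inside the filter (1.06 CPM). Among two-pore genes, Kcnk13 (THIK-1) had 109 counts in the knockout and 0 in the control, at least 38.3-fold higher (chr12:99964499-100062682). The stretch-gated Kcnk2 (TREK-1) had 64 and 87 counts (-0.36, -0.86 to 0.12), and the alkaline-activated Kcnk5 (TASK-2) had 114 and 178 (-0.56, -0.92 to -0.22). Both were called neither, as were Kcnj2 and Kcnj15.

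**Figure D3:**
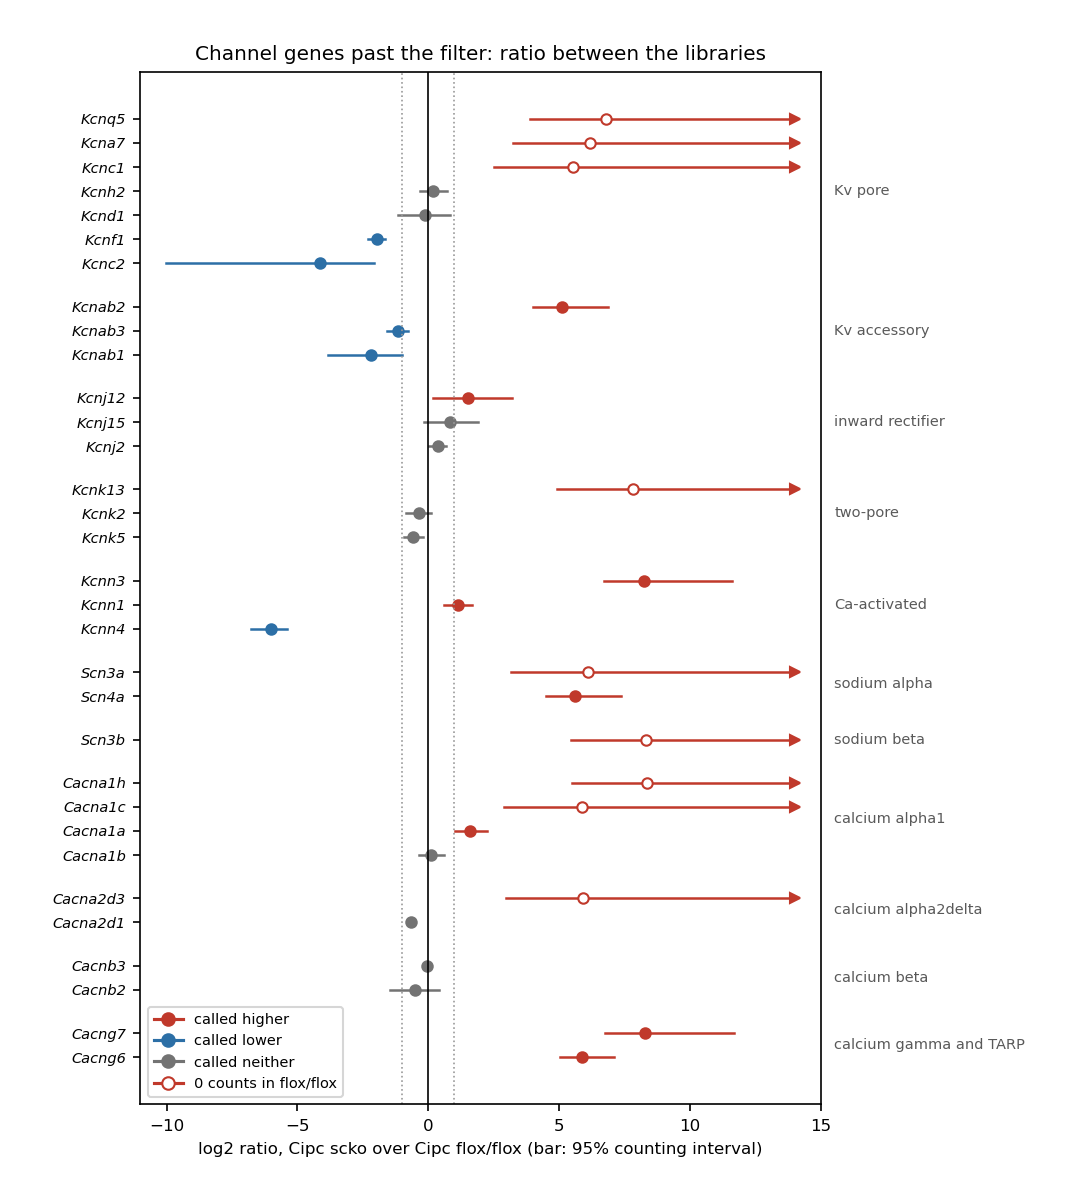
Log2 ratio of knockout over control for the channel genes past the filter that are described here, grouped by subunit class; bars are 95% counting intervals and arrows mark intervals without an upper end. Red, blue and grey are genes called higher, lower and neither, open circles have 0 counts in the control, and dotted lines stand at 2-fold. The 5 blue genes are Kcnn4, Kcnc2, Kcnab1, Kcnf1 and Kcnab3, all of potassium channels.

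Of the sodium channel alpha subunits, 6 of 10 annotated genes were in the table and 3 passed the filter. Scn4a, the Nav1.4 channel of adult skeletal muscle, had 253 counts in the knockout and 5 in the control (15.8 and 0.295 CPM), 53.3-fold higher (log2 ratio 5.60, 4.50 to 7.37; chr11:106318592-106353288). The neuronal gene Scn3a had 33 counts and 0, at least 11.6-fold higher. Per length, Scn4a was 48.6% of the summed sodium channel alpha FPKM in the knockout and 1.46% in the control.

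Sodium channel beta subunits are single-pass proteins that bind alpha subunits and adhere to neighbouring cells. Scn3b had 154 counts and 0, at least 54.1-fold higher (chr9:40269217-40291618).

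**Figure D4:**
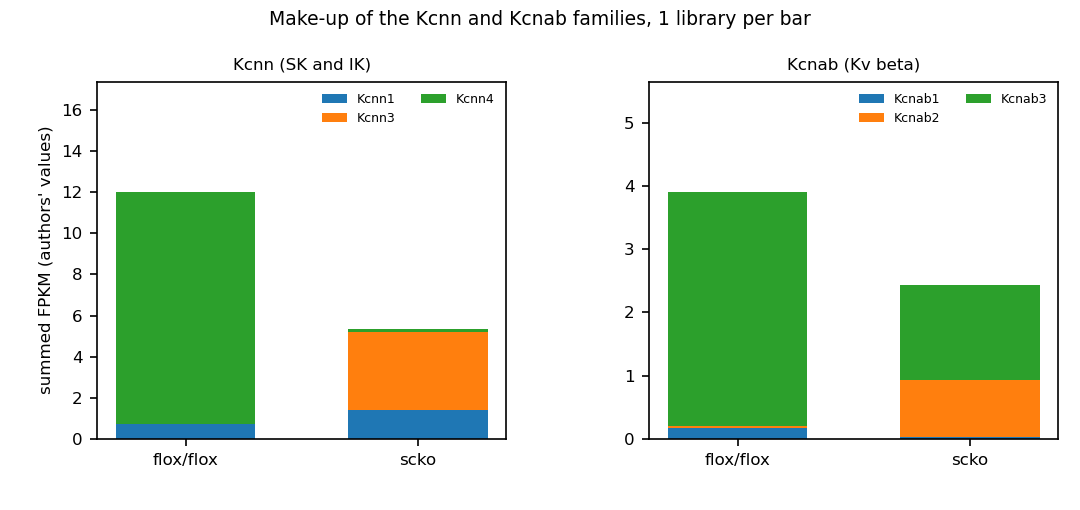
Stacked bars give the authors' FPKM (scaled by transcript length) summed over the genes of the Kcnn and Kcnab families, with 1 library per bar and no error bar. Kcnn4 fills 94.2% of the Kcnn bar of the control and Kcnn3 fills 71.3% of that of the knockout. Kcnab3 is the largest segment of both Kv beta bars.

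Among calcium channel pore subunits, 5 of 9 annotated genes (with Cacna1s left out) were in the table and 4 passed the filter. Cacna1h, the low-voltage-activated T-type channel Cav3.2 known from myoblast fusion, had 160 counts in the knockout and 0 in the control, at least 56.2-fold higher (chr17:25374285-25433783). Cacna1c, the L-type channel Cav1.2 of heart and smooth muscle, had 28 and 0 (at least 9.84-fold). Of the presynaptic channels, Cacna1a (P/Q-type) had 96 and 33 counts (5.98 and 1.95 CPM), 3.07-fold higher (log2 ratio 1.60, 1.03 to 2.23). Cacna1b (N-type) had 76 and 74 (0.11, -0.37 to 0.60) and was called neither.

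Among the members, the most abundant gene per length in both libraries was that of an accessory calcium channel subunit, Cacnb3. Cacng1, left out by the rule, stood higher, at 92.9 FPKM in the knockout and 83.9 in the control. Cacnb3 encodes a cytoplasmic beta subunit that brings high-voltage-activated channels to the membrane, and had 36.6 FPKM in the knockout and 41.8 in the control. Its counts were 1921 and 2108, a log2 ratio of -0.06 (-0.15 to 0.03). It lies on chromosome 15, whose 520 genes past the filter had a median log2 ratio of -0.68, and its ratio was 0.62 when each gene was centred on the median of its chromosome. Cacnb2 had 18 and 27 counts (-0.50, -1.46 to 0.40). Cacna2d1, the extracellular alpha2delta subunit of skeletal muscle, had 849 and 1416 counts (52.9 and 83.7 CPM; log2 ratio -0.66, -0.79 to -0.54), lower in the knockout but within 2-fold. Cacna2d3 had 29 counts and 0, at least 10.2-fold higher.

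Genes of the gamma subunit and TARP family had the highest class median (log2 ratio 7.09 over 2 genes past the filter). Both genes passed the filter only through the knockout, so the filter shaped this median and its rank. CACNG6 is a gamma subunit known from skeletal muscle, and CACNG7 belongs to the TARP group, whose members also regulate AMPA-type glutamate receptors. Cacng7 had 746 counts in the knockout and 2 in the control (46.5 and 0.118 CPM; log2 ratio 8.29, 6.76 to 11.67), and Cacng6 had 534 and 9 (33.3 and 0.532 CPM), 62.6-fold higher (5.89, 5.03 to 7.10). Cacng8, between them, had 16 and 3 counts (2.31, 0.69 to 4.91) and fell just short of the filter with 0.997 CPM. It also shares a near-identical stretch with Gm23450.

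The 3 Cacng genes form a cluster of 103 kb on the plus strand of chromosome 7, in the order Cacng7 (chr7:3332955-3368221), Cacng8 (chr7:3390683-3415648) and Cacng6 (chr7:3424195-3435667). Within 250 kb on either side lay 13 other genes of the table, of which 9 passed the filter, with 2 called higher, 1 lower and 6 neither (median log2 ratio 0.69). The nearest called gene was 3300002P13Rik, a long non-coding RNA read from the opposite strand just before Cacng6, with 45 counts in the knockout and 0 in the control. Myadm, before Cacng7, had a log2 ratio of 0.97 and was called neither. Chromosome 7 had a median log2 ratio of 0.40 over 971 genes past the filter, and carried 7 of the 37 channel genes, with 6 called higher and 1 (Kcnn4) lower. The 30 channel genes on other chromosomes held 15 higher and 4 lower calls with a median log2 ratio of 0.98.

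**Figure D5:**
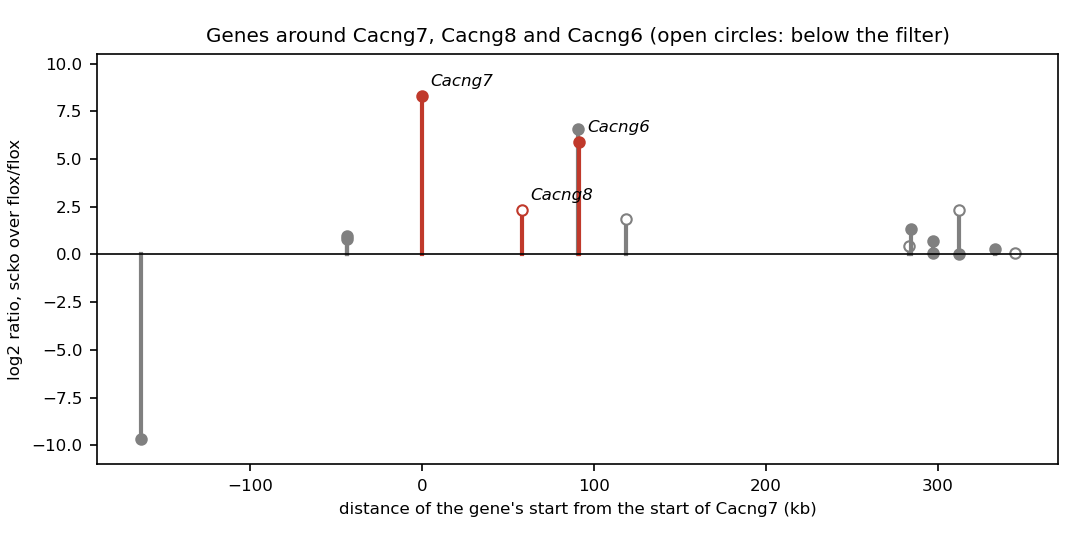
Log2 ratio of knockout over control for each table gene within 250 kb of the Cacng cluster, placed by the distance of its start from that of Cacng7 in kb. Red marks the 3 Cacng genes, grey the 13 others, and open circles are genes below the filter. Cacng7 and Cacng6 stand above their neighbours except the non-coding gene beside Cacng6, and the point near -10 is AU018091 with 0 counts in the knockout and 424 in the control.

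The 31 channel genes below the filter had totals of 2 to 20 counts over both libraries (median 4), and 11 were counted only in the knockout, 10 only in the control and 10 in both. The large-conductance (BK) family lay here: the pore gene Kcnma1 had 2 counts and 0, whereas its beta subunit genes Kcnmb4 and Kcnmb1 had 0 counts in the knockout and 19 and 8 in the control. Kcnmb4 reached 1.12 CPM but not 20 counts. Scn2a had 12 and 3 counts, and Scn7a and Scn10a, known from glia and sensory neurons, each had 0 and 8. The ATP-sensitive pore gene Kcnj11 had 4 and 0, and the Kv genes Kcna4 and Kcnh3 had 10 and 0, and 0 and 8. At the edge of the filter, Kcnj12 (17 and 6 counts) was inside and Kcnj4 (15 and 5 counts) outside. At this depth 0 counts in a library allow a level of up to 0.187 CPM in the knockout and 0.177 CPM in the control, so these genes are not shown to be absent. A further 68 annotated genes that match the rule were not analysed here.

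A list of 67 genes that work beside these channels (other ion channels, pumps, exchangers and regulators) gave 54 genes in the table and 44 past the filter. Of these 15 were called higher in the knockout (34.1%), 11 lower (25.0%) and 18 neither, with a median log2 ratio of 0.25. The matching shares among the 12874 genes were 21.2% and 15.9%. The filter shaped the partner counts as well. At 0 counts in the control, 5 of the 44 partners entered through the knockout alone, and no partner entered with 0 counts in the knockout. Others, such as Kctd12 and Slc8a1, lay under 1 CPM in the control. The partner counts therefore support no direction for the list. Dpp6, an auxiliary subunit of Kv4 channels, had 560 counts in the knockout and 0 in the control (at least 197-fold higher), although the Kv4 gene past the filter, Kcnd1, was called neither. Abcc9, the SUR2 partner of ATP-sensitive channels, had 357 and 0 (at least 125-fold), while its pore partner Kcnj11 had only 4 and 0. The next highest were Kctd12, an auxiliary of GABA-B receptors, with 253 counts and 1 (log2 ratio 7.46, 5.57 to 13.37), and the sodium-calcium exchanger Slc8a3 with 121 and 0 (at least 42.5-fold). Rrad and Gem are small GTPases that bind calcium channel beta subunits and lower calcium current. Rrad had 816 and 26 counts, 33.1-fold higher (5.02, 4.49 to 5.67), and Gem had 97 and 321, 3.14-fold lower (-1.65, -1.99 to -1.32).

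Among the partner genes lower in the knockout, Atp1b1, a beta subunit of the sodium pump, had 193 and 1127 counts, 5.54-fold lower (log2 ratio -2.47, -2.70 to -2.25). Atp1b1 shares exon sequence with Nme7. The mechanosensitive channel gene Piezo2 had 45 and 270 counts, 5.69-fold lower, and the scramblase gene Ano6 had 2048 and 7981, 3.70-fold lower. Of the 3 triad subunits left out of the members, Cacna1s had 3761 counts in the knockout and 0 in the control (at least 1322-fold higher), Cacnb1 had 2900 and 366 (8.35-fold higher) and Cacng1 had 1953 and 1692 (log2 ratio 0.28, 0.19 to 0.38). The L-type pore genes Cacna1s and Cacna1c were thus both at 0 counts in the control, where the accessory genes Cacnb3, Cacna2d1 and Cacng1 had 2108, 1416 and 1692 counts. Other pore genes were counted in the control, Cacna1a with 33 and Cacna1b with 74 counts. The pore gene Cacna1d, below the filter, had 4 counts in the knockout and 0 in the control.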

How the data were processed

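Total RNA of satellite cells was sequenced as 1 library per genotype (VAHTS Universal V6 kit, Illumina, per the labels' protocols). CASAVA, HISAT2 2.0.4 and StringTie 1.3.0 were used with GRCm38, per the submitters' processing notes, which do not give their roles. For the annotation release, counting tool, filters and use of strand: not given in the sources used here. Raw counts for each Ensembl gene were deposited by the authors, per the file headers. The authors also deposited FPKM per library, per the file headers. The FPKM are the counts rescaled by library totals and length, without the TMM factors that the CPM carry. Over 13719 genes, FPKM ratios divided by ratios of counts scaled by library totals lay between 0.9996 and 1.0002. The FPKM therefore served to compare genes per length and as an alternative, not as independent evidence.

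Symbols and positions came from GENCODE vM21 (16116 of 16190 identifiers had a symbol), promoter windows from RefSeq. Counts were scaled by TMM (edgeR 4.0.16, R 4.3.3) to CPM. Log2 ratios used a prior count of 0.5, with exact binomial (Clopper-Pearson) 95% intervals of each gene's split, which hold counting error alone, as the reads carry no molecular identifiers. For a gene at 0 counts in a library, the floor was 3 counts there. Folds given as at least are the CPM of the other library over that floor, without its counting error. The calculation was tested on simulated counts with counting error only, which cannot check the calls against variation between animals or libraries. Near-identical transcripts were those at 95% identity over 80% of the shorter one (BLAST+ 2.17.0), and exon overlap was found with bedtools 2.31.1.

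Alternatives were other scalings (library totals, upper quartile, DESeq2 1.42.0 size factors), fold limits of 1.5 and 4, 99% intervals, FPKM plus 0.1 or plus 1, a prior of 5 counts, a 5 CPM minimum or none, leaving out X and Y, overlapping or non-coding genes, and centring on chromosome medians.

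The members, the marker lists and the list of partner genes were chosen with earlier results of these data known. The naming rule gave full values for the 15 highest and 15 lowest called members by the interval limit nearest to equality, the 8 with the highest mean FPKM, those at 0 counts in 1 library with at least 20 in the other, and the 5 highest and 5 lowest partners. Other members past the filter could be named with their values, and genes below the filter, beside Cacng6 or left out by the rule were named after their values were seen. Some genes that the rule covers are counted but not reported by name here. Protein sequences were not used here.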

Additional observations from a re-analysis of the deposited data

How the results depend on the processing

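No paired analysis was possible because each genotype has 1 library and the replicate number is only a name, and for the same reason no library could be left out. Over 15 alternative settings, the number of channel genes called higher or lower moved by more than 1.5 times under these: without a filter, 10 were called lower (26 higher, of 68); with a CPM of at least 5, 13 were higher and 3 lower (of 22); with FPKM and a pseudocount of 1, 8 were higher and 2 lower; and with a 4-fold limit, 3 were lower, as were 3 partner genes. The median log2 ratio of the channel genes, 1.60, was 2.81 with a CPM of at least 5, 2.81 without X and Y genes (Kcnd1 dropped out), and 0.91 and 0.16 with FPKM and a pseudocount of 0.1 and 1. The pseudocount of 1 exceeds the FPKM of most channel genes and by construction shrinks their ratios. Scaling by library totals gave 20 higher and 5 lower channel genes. It moved the median of all genes to -0.13 and the share of higher among all called genes from 57.1% to 50.8%. Of 175 values for 25 channel genes under the naming rule under 7 settings, 160 kept their call and direction and 14 kept only the direction, 13 of them with the pseudocount of 1 and 1 (Cacna1c, 0.60) with a pseudocount of 0.1. The 1 other value is that of Cacnb3, called neither, which turned from -0.06 to 0.62 when centred on the chromosome median. Cacna1b, which was called neither, turned from 0.11 to -0.02 with library totals. Depth limits the 10 genes past the filter at 0 counts in the control library to lower bounds, and 1 library per genotype leaves the variation between animals unmeasured.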

Other observations

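Several channel genes lie beside another member on the chromosome, and their values can be set side by side without a test. On chromosome 2, Scn3a (33 counts in the knockout library and 0 in the control) lies 53.1 kb from Scn2a (12 and 3). On chromosome 11, Kcnj2 (173 and 142) lies 38.2 kb from Kcnj16 (0 and 3). On chromosome 6, Cacna1c (28 and 0) lies 40.1 kb from Cacna2d4 (5 and 0). The sodium channel pair on chromosome 2 and the calcium channel pair were counted mainly in the knockout, and Kcnj16 was at 0 counts there. Kcnq1ot1, the long antisense RNA of the imprinted Kcnq1 locus, had 13 counts in the knockout and 2 in the control, and Kcnq1 itself had 0 and 2. These genes share exon sequence, and Kcnq1ot1 has near-identical copies among the annotated transcripts (Gm27389, Gm27395 and Gm27539), so their separate values are uncertain.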
